A study of Mus musculus with 6 samples.

Results

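The genes described here are those of the chemokines, small secreted proteins that direct the movement of cells, and of their receptors, in the infarcted mouse heart. Members were taken by symbol and gene type: every protein-coding gene of the CCL, CXCL, CX3CL and XCL ligand families, of the matching CCR, CXCR, CX3CR and XCR receptors, and of the atypical chemokine receptors (ACKR). They number 60 of the 52550 rows of the expression table, with 37 ligands, 19 signalling receptors and 4 atypical receptors. The genes Ccrl2, Pf4 and Ppbp are related but do not carry a member's symbol and were not counted.

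RNA of C57BL/6 mouse hearts had been sequenced after permanent ligation of the left anterior descending coronary artery, done at 8 weeks of age. One group was wild type (WT, n = 3) and the other lacked the long noncoding RNA named lncRNA-DRR in the labels (lncRNA-DRR-/-, KO, n = 3), and the hearts are labelled as taken at 10 weeks, so about 2 weeks after the ligation. All 6 hearts were infarcted, no sham-operated heart was analysed here, and the labels give no sex, litter, batch or harvest time. Nothing in the labels says how the deletion was made or in which cells it acts. The labelled tissue carried its markers: Tnnt2, the cardiac troponin T gene, stood between 574 and 966 FPKM in the 6 libraries.

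Chemokines bind receptors that couple to inhibitory G proteins, and a migrating cell turns toward the side on which more receptors are occupied. In the days after coronary occlusion, neutrophils and then CCR2-bearing monocytes are drawn into the dying muscle, where they clear debris and become macrophages of the healing scar. Atypical receptors bind chemokines without G protein signalling and remove them from the tissue.

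Expression was given as FPKM, fragments scaled by transcript length and by library depth, so levels can be compared roughly between genes and between hearts. Summed FPKM still ran from 442779 in WT replicate 1 to 533319 in KO replicate 1. The log2 differences therefore used scaling factors, from 0.949 for WT replicate 3 to 1.07 for WT replicate 1. Values given per library are without these factors. About 5192000 to 9403000 fragments lay behind a library, as estimated from the smallest step of the values, and WT replicate 1 was the deepest. KO replicate 3 stood apart by sex-linked genes, with Xist at 25.6 FPKM against 0.0742 FPKM or less in the other 5 libraries, so log2 differences are also given without it, for most members together near the end. In bulk RNA of a tissue, fewer cells of a type and less RNA per cell cannot be told apart. No label states that the 3 hearts of a group are independent of each other by litter or operation, and p-values therefore speak only of the spread among these 6 libraries.

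A member was tested where 3 or more libraries held it at 0.5 FPKM or above, which 40 of the 60 did: 27 ligands, 9 signalling receptors and all 4 atypical receptors. No tested member was at or above 0.5 FPKM in every heart of 1 group and in none of the other. Cxcr6, Cxcr2 and Ccl22 were so in all 3 WT hearts and in 1 KO heart. In all 6 libraries, 28 members were at or above 0.5 FPKM. Ccl20, Ccl26, Ccl27b, Ccr6 and Cxcr1 were listed at 0 in all 6 libraries. The other 15 untested members (Ccl1, Ccl25, Ccl28, Ccr10, Ccr1l1, Ccr3, Ccr4, Ccr8, Ccr9, Cxcl15, Cxcl17, Cxcl3, Cxcr5, Xcl1 and Xcr1) reached at most 1.24 FPKM, in Cxcl3 of WT replicate 1.

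None of the 40 tested members was called at a limma adjusted p under 0.05, against 0.375% of all 14656 tested genes. The lowest limma adjusted p among them was 0.0712, for Ccl7. Before adjustment, 8 of the 40 members had a limma p under 0.05, against 8.48% of all tested genes. Ccl7, Ccl12, Ccl8, Ccl3, Ccr2 and Cxcr6 were among the 7 lower in KO, a direction in which 4.68% of all tested genes had such a p. Ackr4 was the 1 higher in KO, against 3.8% of all tested genes. Every difference below is KO minus WT on the scale of log2(FPKM / scaling factor + 0.5), with its SE and n = 3 per group, and understates the change of low genes.

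**Figure D1:**
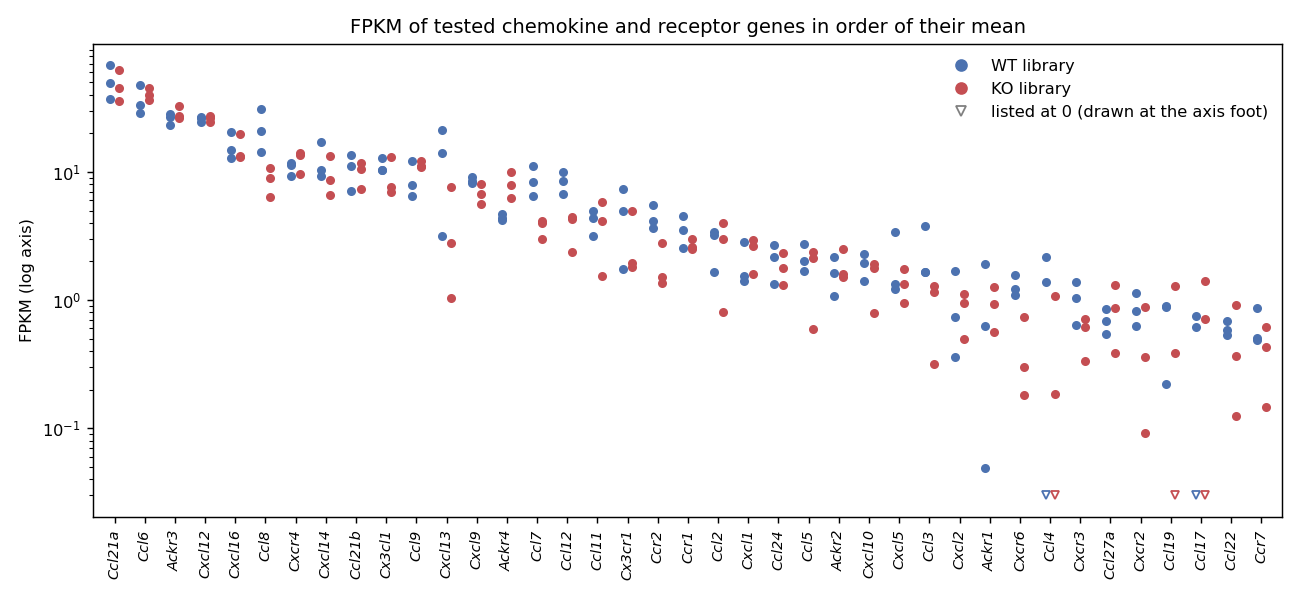
FPKM of 39 of the 40 tested members on a log axis, in order of their mean over the 6 libraries; each point is 1 library (blue WT, red KO), and open triangles at the foot mark values listed at 0. Ccl21a, Ccl6, Ackr3 and Cxcl12 head the order at means of 25.9 FPKM or more in each group, with the WT and KO points mixed, whereas the WT points of Ccl8, Ccl7, Ccl12 and Ccr2 lie above all KO points.

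The levels spanned about 2 orders of magnitude, as the plot of FPKM by member shows. Ccl21a, a ligand that lymphatic vessels display to cells leaving a tissue, had the highest mean of all tested members. It stood at 67.8, 49.6 and 37.4 FPKM in WT replicates 1 to 3 and at 62.8, 36.0 and 45.2 FPKM in KO replicates 1 to 3. The groups overlapped fully, and the log2 difference was -0.09 ± 0.27 (limma adjusted p = 0.963), with a 95% interval of -0.71 to 0.54. Ccl6, a macrophage ligand of CCR1, came second, with 48.1, 33.3 and 28.9 FPKM in the WT hearts and 36.4, 45.3 and 40.0 FPKM in the KO hearts (log2 difference 0.18 ± 0.16, limma adjusted p = 0.834). Ackr3, the scavenging receptor of CXCL12, and Cxcl12, which holds CXCR4-bearing cells in tissues, followed. The lowest tested member was Ccr7, which guides dendritic and T cells to lymph vessels, at 0.619 ± 0.210 and 0.398 ± 0.238 FPKM. Neighbours in this order lay within their spread in many places, as Ackr3 and Cxcl12 did: their means were 26.04 ± 2.73 and 25.9 ± 1.16 FPKM in WT (SD, n = 3, as for every ± on a level below).

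Among the members grouped here as monocyte ligands of CCR2, Ccl7, Ccl12 and Ccl8 were lower in every KO heart and Ccl2 was not. Ccl7 encodes monocyte chemoattractant protein 3. It stood at 11.2, 8.29 and 6.48 FPKM in WT replicates 1 to 3 and at 3.01, 4.14 and 3.99 FPKM in KO replicates 1 to 3. The lowest WT heart lay above the highest KO heart, and the mean was 2.33 times as high in WT. The log2 difference was -1.09 ± 0.18 (limma adjusted p = 0.0712), which did not pass the test. Ccl7 has a single annotated transcript. Its values correspond to about 84.5, 52.9 and 26.9 fragments in WT and 17.0, 27.0 and 21.9 fragments in KO. WT replicates 1 and 2 thus held the most fragments of this gene. WT replicate 3, at about 5192000 fragments in all, was the shallowest of the 6 libraries. The gene (ENSMUSG00000035373.2) lies on chromosome 11 (82045712 to 82047525, plus strand, GRCm38).

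Ccl12, which encodes a mouse chemokine close to CCL2, showed the same order of groups. Its WT hearts held 9.93, 6.77 and 8.48 FPKM, and its KO hearts 2.38, 4.28 and 4.43 FPKM. No KO heart reached the lowest WT heart, and the log2 difference was -1.10 ± 0.22 (limma adjusted p = 0.139). Ccl8, made by tissue macrophages, is also a ligand of other receptors and was only grouped here with those of CCR2. It was the most abundant of the 4 monocyte ligands. It stood at 31.1, 20.8 and 14.2 FPKM in WT and at 8.94, 10.7 and 6.34 FPKM in KO hearts, again without overlap. The log2 difference was -1.25 ± 0.26 (limma adjusted p = 0.151). The gap between WT replicate 3 and KO replicate 2 was small beside the spread within WT, in which replicate 1 was more than 2 times replicate 3.

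Ccl2, the classical monocyte chemoattractant, did not separate the genotypes. It stood at 3.24, 1.66 and 3.38 FPKM in WT and at 3.00, 0.808 and 3.97 FPKM in KO hearts. Replicate 2 was the lowest of each group, and both the highest and the lowest value came from KO hearts. The log2 difference was -0.19 ± 0.48, and its 95% interval of -1.31 to 0.94 includes a difference as large as that of Ccl7. Within a heart, Ccl7 stood at 3.46, 4.999 and 1.92 times Ccl2 in WT and at 1.00, 5.12 and 1.00 times in KO, so the ratio overlapped. The 4 ligands together summed to 55.5, 37.5 and 32.6 FPKM in WT and to 17.3, 19.9 and 18.7 FPKM in KO hearts, a description of genes partly named for their difference. Leaving out any 1 library kept the log2 difference between -1.23 and -0.94 for Ccl7, between -1.25 and -0.87 for Ccl12 and between -1.48 and -1.01 for Ccl8. None was called in these fits, with limma adjusted p between 0.103 and 0.420, and without KO replicate 3 it was 0.137 for Ccl7, 0.149 for Ccl12 and 0.283 for Ccl8.

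Ccr2, the receptor grouped here with these ligands and carried by inflammatory monocytes, was also lower in every KO heart. It stood at 5.54, 4.12 and 3.63 FPKM in WT and at 1.51, 2.78 and 1.35 FPKM in KO hearts. The groups did not overlap, and the log2 difference was -1.07 ± 0.22 (limma adjusted p = 0.144). Without single libraries it ranged from -1.29 to -0.92, and without KO replicate 3 it was -0.92 ± 0.22 (limma adjusted p = 0.269). Ccr2 lies on chromosome 9 (124101950 to 124113557, plus strand, GRCm38).

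**Figure D2:**
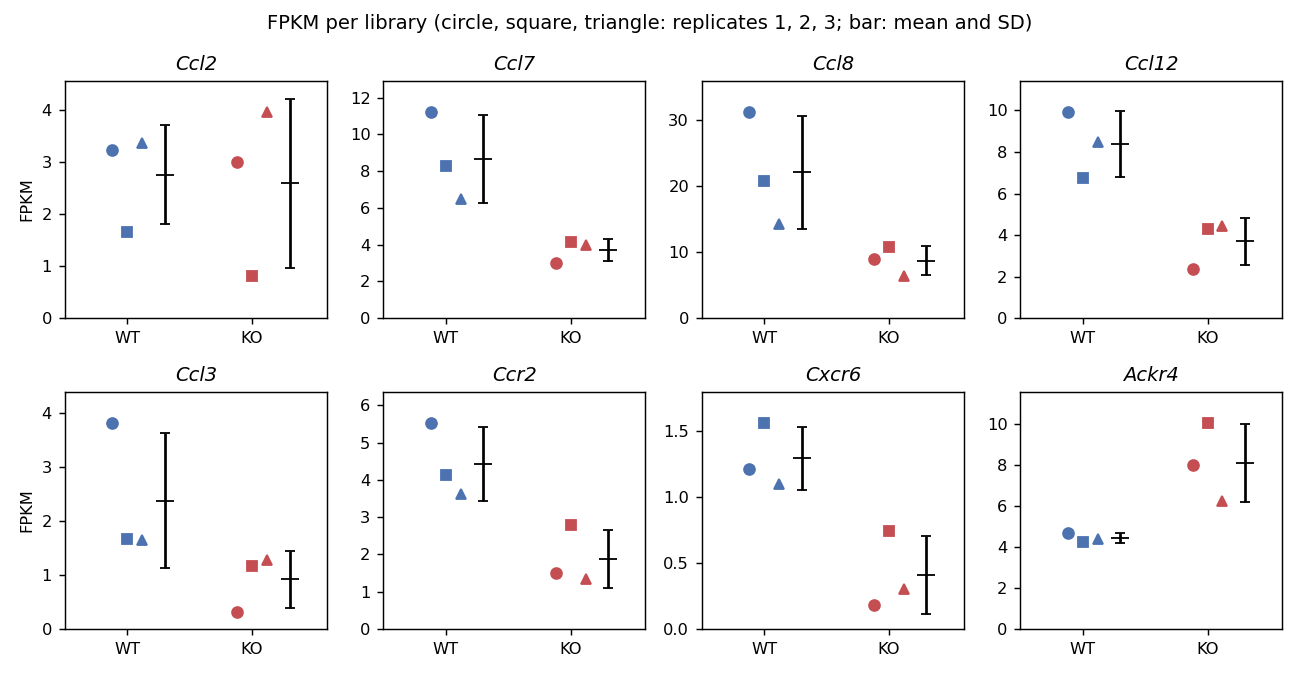
FPKM of 8 members in each library (vertical axes from 0), with circles, squares and triangles for replicates 1, 2 and 3 and black bars for the mean and SD of a group (n = 3). The groups do not overlap for Ccl7, Ccl8, Ccl12, Ccl3, Ccr2, Cxcr6 and Ackr4, and they overlap for Ccl2.

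The median difference of general macrophage genes was smaller than the differences of Ccr2, Ccl7, Ccl8 and Ccl12, which had been picked by their values. Of 13 monocyte and macrophage markers, all tested, 11 were lower in KO and none was called, with a median log2 difference of -0.19. Their summed level ran from 788 to 1377 FPKM in WT and from 753 to 1032 FPKM in KO hearts, and none was listed at 0 in all libraries. Single markers varied, and the lowest differences were those of Fcgr1 (-0.78 ± 0.22, limma adjusted p = 0.307), Itgam (-0.45), Ly6c2 (-0.44) and Adgre1 (-0.42). Cd14 (0.23) and Cd68 (0.03) were higher in KO. Csf1r, the receptor for macrophage colony-stimulating factor, stood at 39.2, 29.6 and 25.4 FPKM in WT and at 25.6, 34.6 and 21.7 FPKM in KO. The ratio of Ccr2 to Csf1r was 0.141, 0.139 and 0.143 in WT and 0.0592, 0.0805 and 0.0623 in KO hearts. It was thus nearly constant over the 3 WT hearts and lower in each KO heart. This pair was chosen after the values of Ccr2 had been seen, so the ratio is a description. An exact two-sided permutation test over the 20 splits of the hearts gave p = 0.1. That is the smallest p it can give, so it decides nothing. Against the 13 markers one by one, every WT ratio of Ccr2 lay above every KO ratio for 10, and for Fcgr1, Itgam and Ly6c2 the ratios overlapped. Ly6c2, a surface marker of inflammatory monocytes, stood at 3.42, 4.50 and 2.33 FPKM in WT and at 2.87, 1.83 and 2.24 FPKM in KO. The same count was 10 of 13 for Ccl7, 10 of 13 for Ccl12 and 11 of 13 for Ccl8. Ccr2 and these ligands were taken after their groups had been seen not to overlap. The counts follow in part from that choice, are a description only, and were not set against other genes. The part of monocyte number in these differences was not tested.

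**Figure D3:**
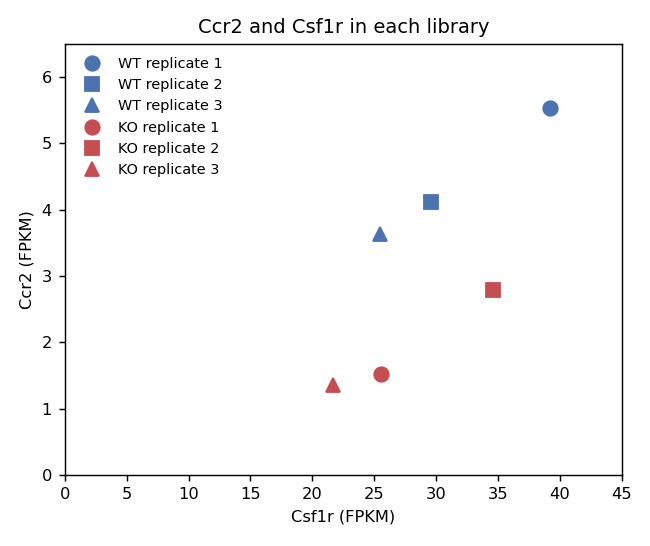
Ccr2 (vertical axis, FPKM) against Csf1r (horizontal axis, FPKM) in each library, with blue for WT, red for KO and 1 symbol per replicate number. The WT libraries lie on a steeper line from the origin (ratios from 0.139 to 0.143) than the KO libraries (0.0592 to 0.0805), over much the same range of Csf1r.

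The promoter windows of the members in this comparison are shown because Ccl12 and Ccl8 are neighbours that were lower together, while Ccr2 and Ackr4 had the smallest p among receptors. Cxcl1 is added as a ligand whose groups overlapped and that carries a kappaB match. They are RefSeq windows on GRCm38.p6, from 250 bases before to 50 bases after the start annotated by RefSeq, written 5′ to 3′ on the gene's strand. That start differs from the GENCODE start of Ccr2 and Ackr4. The Ackr4 window lies wholly inside its GENCODE gene (104084157 to 104126933). The Ccr2 window lies mostly inside its own, which starts at 124101950. Windows were found for 46 of the 60 members, 53 windows in all. Capitals mark matches on either strand to the TATA box (TATAAA), the PU.1 core (GAGGAA), AP-1 (TGANTCA), GAS (TTC and GAA with 3 bases between) or kappaB.
Ccl12, chr11:82101595-82101894, plus strand: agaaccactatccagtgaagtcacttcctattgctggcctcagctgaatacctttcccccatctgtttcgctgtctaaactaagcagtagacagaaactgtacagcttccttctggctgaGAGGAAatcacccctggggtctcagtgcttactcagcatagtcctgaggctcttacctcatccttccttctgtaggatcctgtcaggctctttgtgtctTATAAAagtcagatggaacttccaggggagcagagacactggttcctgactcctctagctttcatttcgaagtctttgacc
Ccl8, chr11:82114935-82115234, plus strand: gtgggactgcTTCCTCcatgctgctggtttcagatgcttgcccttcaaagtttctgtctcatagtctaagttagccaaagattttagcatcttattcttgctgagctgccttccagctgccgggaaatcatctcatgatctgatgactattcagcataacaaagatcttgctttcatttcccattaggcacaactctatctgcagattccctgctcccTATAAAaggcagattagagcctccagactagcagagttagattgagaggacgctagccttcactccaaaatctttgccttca
Ccr2, chr9:124101933-124102232, plus strand: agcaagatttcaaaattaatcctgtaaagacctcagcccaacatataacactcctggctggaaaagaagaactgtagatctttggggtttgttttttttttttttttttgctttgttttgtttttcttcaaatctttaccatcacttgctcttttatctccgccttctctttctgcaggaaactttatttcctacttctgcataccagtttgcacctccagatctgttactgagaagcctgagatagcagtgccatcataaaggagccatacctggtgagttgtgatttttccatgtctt
Ackr4, chr9:104126594-104126893, minus strand: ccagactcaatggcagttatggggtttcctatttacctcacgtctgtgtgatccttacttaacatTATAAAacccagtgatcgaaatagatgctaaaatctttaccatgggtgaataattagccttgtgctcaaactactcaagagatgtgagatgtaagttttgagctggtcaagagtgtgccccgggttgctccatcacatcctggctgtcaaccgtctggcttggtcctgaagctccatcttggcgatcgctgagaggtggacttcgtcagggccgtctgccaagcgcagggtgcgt
Cxcl1, chr5:90890995-90891294, plus strand: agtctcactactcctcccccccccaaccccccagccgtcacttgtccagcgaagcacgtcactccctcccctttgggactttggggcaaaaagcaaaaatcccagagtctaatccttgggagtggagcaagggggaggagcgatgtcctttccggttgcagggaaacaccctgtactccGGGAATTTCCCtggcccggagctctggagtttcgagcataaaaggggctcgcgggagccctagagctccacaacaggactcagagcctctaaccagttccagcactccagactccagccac

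Counting bases from the annotated start, the TATA box match of Ccl12 began at -31 and that of Ccl8 at -32, and each window also held 1 PU.1 core match. The 2 windows were identical at 63.9% of 277 aligned bases, against 57.3% to 61.4% for the other pairs among Ccl12, Ccl8, Ccr2 and Ackr4. In Cxcl1 the kappaB motif matched on both strands, at overlapping positions. The window of Ccr2, mostly inside its GENCODE gene, held none of the 5 motifs. That of Ackr4, wholly inside its gene, held a TATA box match that began at -185 from the RefSeq start. Over all 32851 promoter windows of the same length, 13.6% held a TATA box match, 4.51% kappaB, 7.81% AP-1, 8.30% GAS and 28.3% the PU.1 core. Among the 53 member windows the counts were 15 with a TATA box match, 10 with kappaB, 10 with AP-1, 4 with GAS and 18 with the PU.1 core. The window of Cxcl1 was among those with kappaB. A match describes the letters only, and windows of genes with several starts share sequence.

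CC ligand genes lie side by side on chromosome 11 in 2 blocks, and the sizes of the differences varied along each. In the first block, from Ccl2 at 82035571 to Ccl1 at 82305690, the order is Ccl2, Ccl7, Ccl11, Ccl12, Ccl8 and Ccl1. Their log2 differences were -0.19, -1.09, -0.22, -1.10 and -1.25, and Ccl1 was not tested. Ccl11, or eotaxin, which attracts eosinophils, stood at 3.19, 4.98 and 4.39 FPKM in WT and at 5.83, 1.53 and 4.17 FPKM in KO. It lies between Ccl7 and Ccl12, and its groups overlapped. The differences between neighbouring genes were not tested.

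The second block, 139 kb long, holds Ccl5, Ccl9, Ccl6, Ccl3 and Ccl4, most of which are ligands of CCR1. Ccl3, or macrophage inflammatory protein 1 alpha, stood at 3.82, 1.67 and 1.64 FPKM in WT and at 0.319, 1.16 and 1.28 FPKM in KO. The groups did not overlap, but WT replicates 2 and 3 were near KO replicates 2 and 3. Its log2 difference was -1.01 ± 0.36 (limma adjusted p = 0.473), and KO replicate 1 rests on about 1.7 fragments. Ccl4, its close relative, was listed at 0 in WT replicate 3 and KO replicate 3. It stood at 2.15 and 1.39 FPKM in the other WT hearts and at 1.08 and 0.186 FPKM in the other KO hearts. Ccl5, released by T cells and platelets, was at 0.590 FPKM in KO replicate 1 and between 1.70 and 2.73 FPKM in the other 5 libraries. Ccl9, a macrophage ligand of CCR1, leaned the other way, at 12.2, 6.47 and 7.86 FPKM in WT and at 11.1, 12.3 and 10.9 FPKM in KO. WT replicate 1 lay among the KO hearts, and the log2 difference was 0.41 ± 0.19 (limma adjusted p = 0.641). For Ccl6 it was 0.18 ± 0.16. The 5 ligands summed to 69.0, 44.5 and 40.4 FPKM in WT and to 49.5, 61.3 and 54.2 FPKM in KO hearts, within the same range.

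**Figure D4:**
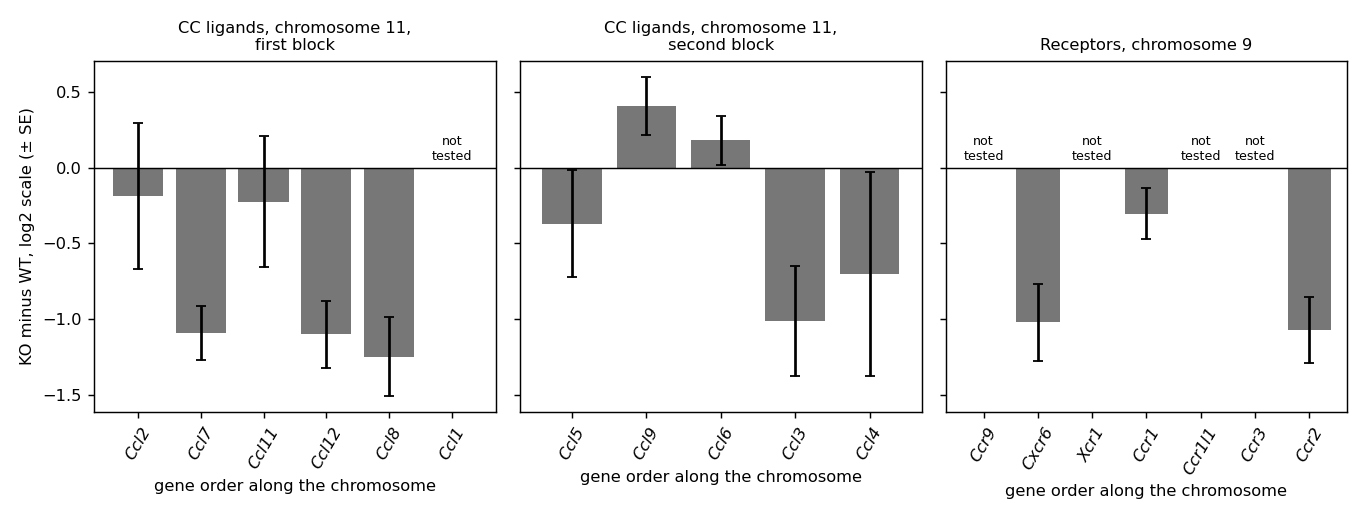
KO minus WT on the log2 scale (bars with SE, n = 3 per group) for members in their order along chromosome 11 (2 blocks of ligands) and chromosome 9 (receptors); members under the filter are marked as not tested, and 7 receptor genes are drawn. In the first block the bars of Ccl7, Ccl12 and Ccl8 reach -1.09 or lower, with those of Ccl2 and Ccl11 near -0.2 among them, and in the second block Ccl9 and Ccl6 point up while Ccl3 points down.

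Receptor genes also lie side by side on chromosome 9, among them Cxcr6, Xcr1, Ccr1 and Ccr2. Ccr1, a receptor of several of these ligands on myeloid cells, stood at 4.54, 3.53 and 2.56 FPKM in WT and at 2.58, 3.00 and 2.50 FPKM in KO, with overlap (log2 difference -0.30 ± 0.17, limma adjusted p = 0.707). Cxcr6 marks resident T cells and natural killer T cells. It stood at 1.21, 1.56 and 1.10 FPKM in WT and at 0.182, 0.743 and 0.302 FPKM in KO hearts. Every WT heart lay above every KO heart, and the log2 difference was -1.02 ± 0.25 (limma adjusted p = 0.246, and 0.393 without KO replicate 3). The KO values of Cxcr6 rest on only about 2.4, 11.6 and 3.9 fragments, against 21.7, 23.7 and 10.9 in WT. Its ligand Cxcl16, a membrane-bound chemokine of macrophages and endothelium, stood at 20.5, 14.8 and 12.8 FPKM in WT and at 13.0, 19.7 and 13.4 FPKM in KO, with full overlap. Its log2 difference was -0.04 ± 0.18 (limma adjusted p = 0.972), with a 95% interval of -0.46 to 0.38. Cxcl16 shares 552 of its 3021 exon bases with Zmynd15 on the other strand, a gene that stood between 2.41 and 3.68 FPKM. Xcr1, the receptor of conventional dendritic cells that present antigen to CD8 T cells, was under the filter. It stood at 0.382, 0.550 and 0.366 FPKM in WT and at 0.255, 0.291 and 0.194 FPKM in KO, on 5.9 to 19.5 fragments a library.

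T cell markers were lower along with Cxcr6. All 6 tested of 11 markers were lower in KO, none called, with summed levels of 7.72 to 15.4 FPKM in WT and 3.61 to 5.70 FPKM in KO hearts. Natural killer cell markers (2 of 2 tested lower, of 5) summed to 1.74 to 2.98 FPKM in WT and 0.706 to 2.12 FPKM in KO, and dendritic cell markers (4 of 4 tested lower, of 5) to 7.23 to 10.7 and 5.85 to 7.09 FPKM. No marker of these 3 lists was at 0 in all 6 libraries. The part of cell number was not tested.

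The interferon-induced ligands of CXCR3, which draw activated T cells, showed narrow differences. Cxcl9 stood at 8.19, 9.12 and 8.43 FPKM in WT and at 6.68, 8.03 and 5.65 FPKM in KO. The groups did not overlap, although WT replicate 1 and KO replicate 2 differed by little, and the log2 difference was -0.32 ± 0.14 (limma adjusted p = 0.617). Cxcl10, its neighbour, was at 1.87 ± 0.434 and 1.497 ± 0.609 FPKM. It shares 133 exon bases with Art3 on the other strand, and whether strand was used in counting is not given in the sources used here. The receptor gene Cxcr3 stood at 1.04, 1.39 and 0.633 FPKM in WT and at 0.615, 0.705 and 0.336 FPKM in KO, with WT replicate 3 between KO hearts (log2 difference -0.51 ± 0.25, limma adjusted p = 0.661). Among all tested genes the share whose groups did not overlap was 12.8%, and 8 of the 40 members showed this. The 7 lower in KO are Ccl7, Ccl12, Ccl8, Ccl3, Cxcl9, Ccr2 and Cxcr6, where 7.5% of all tested genes lay so, and the 1 higher is Ackr4, where 5.29% did.

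Cxcl13, which gathers B cells into follicles through CXCR5, had the largest fitted difference and the largest spread of those tested. It stood at 14.03, 21.2 and 3.16 FPKM in WT and at 2.77, 7.65 and 1.05 FPKM in KO hearts. KO replicate 2 lay above WT replicate 3, and WT replicate 3 stood far below the other WT hearts. The log2 difference was -1.59 ± 0.74 (limma adjusted p = 0.636), with a 95% interval of -3.33 to 0.14. Without single libraries it ran from -2.32 to -1.03, the latter without KO replicate 3. Cxcr5, its receptor, reached at most 0.404 FPKM, in KO replicate 2, and was not tested. B and plasma cell markers leaned the same way, with 4 of 4 tested lower of 7 in the list, none called, and sums of 23.8 to 85.9 FPKM in WT and 10.48 to 20.7 FPKM in KO hearts. Their part in the level of Cxcl13 was not tested.

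Ligands and receptors of neutrophils were low 2 weeks after infarction. Cxcl1, the keratinocyte-derived chemokine, stood at 2.86, 1.40 and 1.53 FPKM in WT and at 1.59, 2.67 and 2.94 FPKM in KO. The groups overlapped (log2 difference 0.28 ± 0.26), and Cxcl2, a second ligand of CXCR2, was at 0.933 ± 0.686 and 0.855 ± 0.324 FPKM. Cxcl5 was highest in WT replicate 1, at 3.43 FPKM, and between 0.954 and 1.75 FPKM in the other 5 libraries. Cxcr2, the receptor that neutrophils follow, stood at 1.14, 0.824 and 0.631 FPKM in WT and at 0.0923, 0.362 and 0.880 FPKM in KO. KO replicate 3 lay above WT replicates 2 and 3, and the log2 difference was -0.59 ± 0.33 with it and -0.93 ± 0.26 without it (limma adjusted p = 0.707 and 0.360). Neutrophil markers had 8 of 8 tested members lower in KO, of 10 in the list, and 1 called, S100a8. Their sums were 56.1 to 76.3 FPKM in WT and 19.6 to 39.5 FPKM in KO hearts, with the highest KO sum in replicate 3. No neutrophil marker was at 0 in all 6 libraries, and their part in the level of Cxcr2 was not tested.

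The homeostatic pair Cxcl12 and Cxcr4 showed differences near 0. Cxcl12 stood at 26.4, 26.7 and 24.6 FPKM in WT and at 24.3, 27.4 and 26.6 FPKM in KO hearts. The 6 hearts lay within a few FPKM of each other, and the log2 difference was 0.02 ± 0.10 (limma adjusted p = 0.977) with a 95% interval of -0.22 to 0.27. Cxcr4 was at 11.3, 11.8 and 9.35 FPKM in WT and at 14.1, 13.6 and 9.71 FPKM in KO hearts (log2 difference 0.20 ± 0.16, limma adjusted p = 0.822). KO replicate 3 was the low KO heart, and without it the difference was 0.35 ± 0.14 (limma adjusted p = 0.511). Cx3cl1, or fractalkine, stood at 12.8, 10.4 and 10.3 FPKM in WT and at 7.64, 13.0 and 6.94 FPKM in KO, where replicate 2 was the highest of all 6 (log2 difference -0.30 ± 0.20, limma adjusted p = 0.766). Its receptor Cx3cr1, a marker of patrolling monocytes and of tissue macrophages, varied more within groups than between them, with WT hearts at 1.75, 4.93 and 7.36 FPKM and KO hearts at 1.95, 4.94 and 1.81 FPKM. Cxcl14 stood at 17.1, 10.4 and 9.34 FPKM in WT and at 13.3, 6.62 and 8.62 FPKM in KO, with overlap (log2 difference -0.35 ± 0.30, limma adjusted p = 0.830).

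The ligands of CCR7 are read with care, because Ccl21a and Ccl21b are near-identical: 400 of 402 aligned transcript bases agree, so fragments can be split between them. Ccl21b stood at 13.5, 11.2 and 7.16 FPKM in WT and at 10.6, 7.42 and 11.7 FPKM in KO hearts (log2 difference -0.06 ± 0.25, limma adjusted p = 0.972). Ccl19, the other ligand, was listed at 0 in KO replicate 1 and lay between 0.222 and 1.30 FPKM elsewhere. Among the remaining tested ligands, Ccl24 was at 2.06 ± 0.693 and 1.82 ± 0.517 FPKM, Ccl22 at 0.601 ± 0.0770 and 0.469 ± 0.403 FPKM, and Ccl27a at 0.695 ± 0.153 and 0.849 ± 0.460 FPKM. Ccl17 was listed at 0 in WT replicate 2 and KO replicate 1 and reached at most 1.42 FPKM.

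None of the 4 atypical receptors was lower in KO with all 6 libraries, and Ackr4 had the largest difference among them. Of the other 3, only Ackr1 turned in sign when 1 library was left out, at -0.23 without WT replicate 2. Ackr2 fell to 0.008 without WT replicate 3, and Ackr3 to 0.04 without KO replicate 3. Ackr4 binds CCL19, CCL21 and CCL25 and clears them from tissue. It stood at 4.69, 4.24 and 4.36 FPKM in WT and at 7.97, 10.0 and 6.25 FPKM in KO hearts. The 3 WT hearts were close together and every KO heart lay above them, at 1.82 times the WT mean. The log2 difference was 0.79 ± 0.16 (limma adjusted p = 0.130), which did not pass the test. Without KO replicate 3, the lowest KO heart, it was 0.94 ± 0.13 (limma adjusted p = 0.0680), and over all fits without 1 library it ran from 0.67 to 0.94 (limma adjusted p from 0.0680 to 0.420). Ackr4 (ENSMUSG00000079355.5) lies on chromosome 9 (104084157 to 104126933, minus strand, GRCm38) and shares 479 of its 5380 exon bases with Acad11 on the other strand. Acad11 stood at 11.01, 12.8 and 14.5 FPKM in WT and at 13.2, 9.06 and 9.71 FPKM in KO, the opposite lean. The ligand sum of CCR7, given above gene by gene, overlapped between the groups, at 44.8 to 82.1 FPKM in WT and 43.8 to 73.4 FPKM in KO.

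The other atypical receptors differed by less. Ackr3 stood at 28.4, 26.7 and 23.1 FPKM in WT and at 26.2, 27.3 and 32.7 FPKM in KO, with a log2 difference of 0.15 ± 0.13 (limma adjusted p = 0.833) and of 0.04 ± 0.12 without KO replicate 3, the highest library. Ackr2, which degrades inflammatory CC ligands in lymphatic endothelium, was at 1.63 ± 0.547 and 1.87 ± 0.550 FPKM. Ackr1, the Duffy antigen receptor of venules, ranged from 0.0486 FPKM in WT replicate 2 to 1.92 FPKM in WT replicate 1, and it shares 361 exon bases with Cadm3. Of the other signalling classes, 20 of 27 tested ligands and 8 of 9 tested receptors were lower in KO, with Cxcr4 the 1 receptor higher. Lymphatic endothelial markers had 3 of 5 tested members lower, none called, and sums of 48.6 to 63.1 FPKM in WT and 57.2 to 67.6 FPKM in KO. Their part in the level of Ackr4 was not tested.

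**Figure D5:**
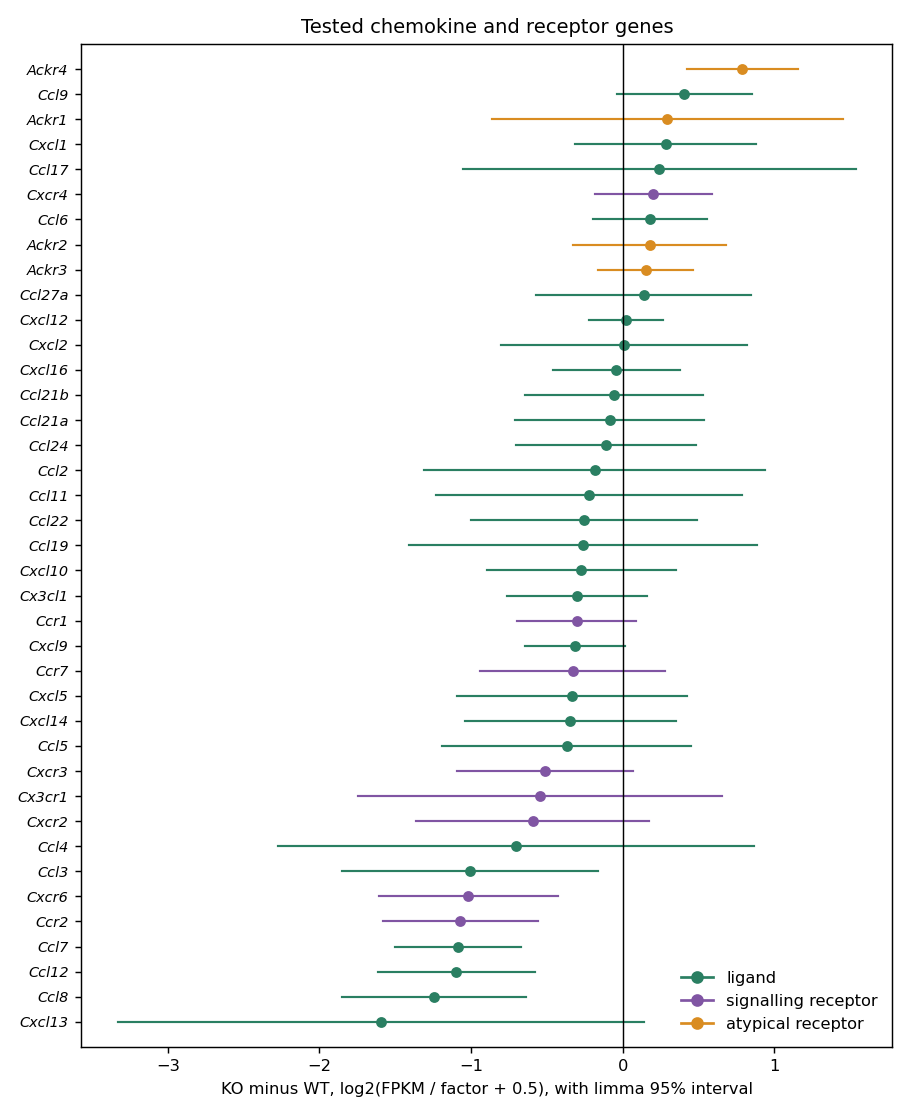
KO minus WT for 39 of the 40 tested members on the log2 scale, with limma 95% intervals (n = 3 per group), coloured by class. The intervals of 7 members shown do not include 0: Ackr4 on the right, and Ccl7, Ccl12, Ccl8, Ccr2, Cxcr6 and Ccl3 on the left.

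Over the 40 tested members, 28 were lower and 12 higher in KO, with a median log2 difference of -0.27, against 50.7% lower and a median of -0.004 over all tested genes. The plot of differences by member shows that the 12 higher members include all 4 atypical receptors. WT replicate 1 held the highest value of 20 of the 40 members, whereas it was the highest library for 25.6% of all tested genes. Without it, 21 of 37 tested members were lower and the median was -0.14. Without KO replicate 3, 27 of 39 were lower and the median was -0.21. Red cell and platelet markers, all 8 lower in KO and none called, also summed highest in WT replicate 1, with sums of 6331 to 11079 FPKM in WT and 4435 to 7306 FPKM in KO hearts, and its part was not tested.

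Leaving out KO replicate 3 moved the log2 difference of several members by more than 1.5 times, and none of the tested members was called by limma in that fit. Ccl2 stood at -0.55 without it, against -0.19 with all libraries, and Ccl5 at -0.58 against -0.37. Cx3cl1 stood at -0.15 against -0.30, Ccr7 at -0.12 against -0.33, Cxcl1 at 0.13 against 0.28 and Ccl4 at -0.35 against -0.70. Signs turned for Ccl17, at -0.21 against 0.24, for Ccl22, at 0.02 against -0.25, for Cxcl2, at -0.15 against 0.01, and for Cxcl16, at 0.03 against -0.04. They also turned for Cxcl10, at 0.001 against -0.27, and for Cxcl12, at -0.006 against 0.02, while Ccl21b stood at -0.20 against -0.06. The members lower in every KO heart kept that lean, with Ccl3 at -1.23 and Cxcl9 at -0.22. Ccr1 stood at -0.27, Cxcr3 at -0.36, Cx3cr1 at -0.34 against -0.55, Cxcl14 at -0.32, Cxcl5 at -0.35 and Ccl11 at -0.36 against -0.22. Ccl9 stood at 0.42, Ccl6 at 0.17, Ackr1 at 0.48 against 0.29, Ackr2 at 0.24, Ccl27a at 0.10, Ccl24 at -0.13 and Ccl21a at -0.08. Ccl19 no longer passed the filter and was not tested.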

How the data were processed

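Total RNA of 6 infarcted hearts was sequenced from TruSeq libraries, per the labels' protocols. The authors deposited 1 FPKM value per gene and heart, in a table titled as counts whose values above 0 are almost never whole. Bowtie 0.12.2 and the builds mm8 and mm9 are named, per the submitters' processing notes. Which quantifier, annotation, strand setting and filters were used is not given in the sources used here. Symbols and coordinates came from GENCODE M21 (GRCm38), which 52403 of 52550 rows matched by identifier.

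Samples were grouped by the genotype in their titles. The 14656 genes that 3 or more libraries held at 0.5 FPKM or above were scaled by trimmed means of log2 ratios (trims 0.3 and 0.05). They were then fitted, as log2(FPKM / factor + 0.5), by limma 3.58.1 under R 4.3.3. The fit had genotype as its only term, a mean-variance trend and two-sided tests. P-values were adjusted by Benjamini-Hochberg over all tested genes and called under 0.05. The script was tested on simulated data. Library depth was inferred from the recurring smallest step of FPKM times length among genes with a single transcript, so fragment numbers are approximate.

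The members, their roles, and the cell type and pathway lists were chosen with earlier results of these data known. Values in every library were to be given for the 14 tested members of smallest p and the 10 of highest mean, and others by role. From each list, the called genes or the 2 of smallest p were to be named. Single values of 1 member and 1 listed gene are not reported here, though counts include them. Alternatives were other scaling factors, pseudocounts, filters and variance settings, a replicate block, and fits without each library.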

Additional observations from a re-analysis of the deposited data

How the results depend on the processing

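No member was called under any alternative but 1. With the replicate block 1 member was called, Cxcl13 (log2 difference -1.59, limma adjusted p = 0.0422), and 42 genes in all against 55 without it. The replicate numbers pair nothing known: same-numbered hearts of the genotypes deviated together with r = 0.00759, -0.0357 and 0.180 across genes for numbers 1, 2 and 3. Only the hearts numbered 3 correlated best with their own number. Over all genes, 20 were called with no filter on low values, and 12 to 36 when 1 library was left out (12 without KO replicate 1, 16 without WT replicate 2, and 26, 26, 26 and 36 without WT replicate 1, WT replicate 3, KO replicate 2 and KO replicate 3). The fits with fewer libraries have fewer degrees of freedom, and the fit with no filter tests 25162 genes.

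The median log2 difference of the tested members stayed between -0.34 and -0.14 over all 17 alternatives. Of 389 refits of the 23 members of smallest p or highest mean, 378 kept their direction and their side of the threshold and 10 turned in sign, all without 1 library and all small. Their log2 differences ran from -0.33 to 0.15 for Ccl21a, from -0.27 to 0.17 for Ccl21b, from -0.0123 to 0.0524 for Cxcl12 and from -0.18 to 0.10 for Cxcl16. The cause was not tested. Depth limits what the low members show: Ccl17, Ccl19, Ccl22, Ccl27a, Ccl4 and Ccr7 rest on 16.0 fragments or fewer in every library.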

Other observations

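Genes around the chemokines were described from lists. Of 41 genes of receptor signalling and its control, 40 were tested and 31 were lower in KO, none called. The smallest p belonged to Grk3, a kinase that turns receptors off, at 1.97 ± 0.174 and 1.155 ± 0.0879 FPKM in WT and KO (SD, n = 3; limma adjusted p = 0.251). Next was Pik3cd, a leucocyte phosphoinositide 3-kinase gene, at 2.66 ± 0.0930 and 1.62 ± 0.327 FPKM (limma adjusted p = 0.293). Of 15 genes of processing, presentation and related proteins, 6 were lower and 1 was called. The called gene was Tsc22d3, a glucocorticoid-induced gene that encodes no chemokine protein, which rose from 13.1 ± 1.08 to 67.5 ± 13.5 FPKM (limma adjusted p = 0.0027). The platelet chemokine gene Pf4 was at 30.2 ± 2.61 and 28.6 ± 1.29 FPKM.

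Of 20 inducers of chemokine genes, 15 were tested, 11 were lower in KO and none was called. Before adjustment, 3 had a limma p under 0.05, against 8.48% of all tested genes, and 2 of these were lower in KO. Nfkbia, which encodes an inhibitor of NF-kappaB, stood at 26.2, 26.5 and 23.8 FPKM in WT and at 58.2, 55.3 and 41.9 FPKM in KO hearts. The groups were far apart, and the log2 difference of 1.01 ± 0.15 just missed the threshold (limma adjusted p = 0.0501). Rela, a subunit of NF-kappaB that was not picked by its p, was at 24.2 ± 1.10 and 27.6 ± 6.77 FPKM. Cd74, the invariant chain and a receptor of the chemokine-like protein MIF, stood at 477 ± 145 and 242 ± 62.6 FPKM (limma adjusted p = 0.213).

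From each marker list without a called gene, the 2 of smallest p are given with WT and KO means. Among macrophage markers these were Fcgr1 (5.53 ± 1.55 and 2.98 ± 0.931 FPKM) and Adgre1 (17.0 ± 4.62 and 12.5 ± 3.13 FPKM). T cell markers gave Trac (3.50 ± 0.641 and 1.43 ± 0.305 FPKM) and Trbc2 (1.17 ± 0.738 and 0.0922 ± 0.160 FPKM), which encode constant chains of the T cell receptor. B and plasma cell markers gave Jchain (41.5 ± 29.0 and 12.4 ± 3.88 FPKM) and Mzb1 (2.90 ± 1.64 and 0.617 ± 0.748 FPKM). Natural killer cell markers gave Gzma (0.793 ± 0.0709 and 0.612 ± 0.426 FPKM) and Nkg7 (1.01 ± 0.731 and 0.680 ± 0.328 FPKM), and dendritic cell markers gave Itgax (2.59 ± 1.02 and 1.66 ± 0.735 FPKM) and Zbtb46 (2.41 ± 0.360 and 1.86 ± 0.537 FPKM). Red cell markers gave the haemoglobin genes Hba-a2 (2534 ± 654 and 1708 ± 333 FPKM) and Hba-a1 (2349 ± 664 and 1564 ± 322 FPKM).

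Endothelial markers gave Kdr, a VEGF receptor (40.9 ± 2.30 and 27.4 ± 1.05 FPKM), and Pecam1 (57.8 ± 4.82 and 64.3 ± 5.14 FPKM). Lymphatic markers gave Lyve1 (15.5 ± 2.05 and 21.7 ± 4.204 FPKM) and Prox1 (9.57 ± 0.779 and 7.35 ± 0.587 FPKM). Fibroblast markers gave Tcf21 (7.67 ± 0.709 and 10.05 ± 2.11 FPKM) and Postn (162 ± 63.9 and 223 ± 70.7 FPKM), and mural markers gave Abcc9 (34.2 ± 0.939 and 28.4 ± 2.24 FPKM) and Rgs5 (301 ± 1.43 and 350 ± 39.3 FPKM). Mesothelial markers gave Wt1 (1.28 ± 0.373 and 2.79 ± 0.811 FPKM) and Upk3b (6.26 ± 3.01 and 7.06 ± 2.67 FPKM), and cardiomyocyte markers gave Ttn (9.66 ± 1.01 and 6.53 ± 0.927 FPKM) and Myl2 (1680 ± 149 and 1359 ± 516 FPKM). No gene was called among the markers of endothelial cells (6 tested, 2 lower), fibroblasts (6 tested, 1 lower), mural cells (5 tested, 3 lower), mesothelial cells (4 tested, 0 lower) and cardiomyocytes (6 tested, 6 lower). Of 5 markers of lung, thymus and epithelium, 4 were listed at 0 in all 6 libraries. Cxcl11, another ligand of CXCR3, is annotated as a polymorphic pseudogene and is no member. It stood at 0.0559, 0.0331 and 0.0508 FPKM in WT and was listed at 0 in all 3 KO hearts.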
